A study of Mus musculus with 30 samples.

Results

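Gene expression was compared between parietal and occipital brain tissue of wild-type newborn mice. The 4 parietal and 4 occipital wild-type (WT) arrays were found by their labels, and they are 8 of the 30 arrays of a study of the transcription factor Tbr1. The CD1 mice came from a line in which the Tbr1 mutation was kept in heterozygous animals. The arrays compared were labelled wild type, parietal or occipital brain, postnatal day (P) 0.5. The other groups of the same age were WT frontal tissue and frontal, parietal and occipital tissue of Tbr1 homozygous null (KO) mice, which gave 24 arrays in 6 groups of 4. The labels give neither the sex of the animals nor the borders of the dissection, and do not say that replicates came from separate animals, so the p-values measure the spread between these samples, which may be technical.

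Each array measured total RNA, with a log2 signal deposited for every probe set. For each of 19938 genes the brightest of its probe sets was used, and a difference is given as the log2 signal in parietal minus that in occipital tissue, so a positive value means higher in parietal. Called genes are those with an adjusted p under 0.05 (Benjamini-Hochberg over the 19938 genes) in a limma fit of the 24 arrays. In whole tissue, fewer cells of a type and less RNA per cell cannot be told apart.

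The cerebral cortex is divided into areas along its rostral to caudal axis. Signalling centres at its edges set graded levels of transcription factors in the progenitor layer before birth, among them Nr2f1 (COUP-TFI), which is high caudally, and Sp8, which is high rostrally. Neurons inherit part of this positional information, and axons arriving from the thalamus sharpen the areas around birth. Parietal cortex holds the somatosensory areas of the rodent and occipital cortex the visual areas.

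Newborn parietal and occipital tissue differed in 90 genes, 0.451% of those tested. Parietal tissue was higher in 51 (0.256%) and occipital tissue in 39 (0.196%). Npy, the peptide transmitter neuropeptide Y of a subset of GABAergic neurons, had the largest difference on the parietal side at 2.18-fold, and Fn1, the matrix protein fibronectin, the largest on the occipital side at 2.33-fold. The median difference of the called genes was 1.45-fold, with 41 at least 1.5-fold (0.206% of all genes) and 6 at least 2-fold (Fn1, Nr4a2, Egfem1, Npy, Tgfbr1 and Rny1). In 89 of the 90 genes no parietal value overlapped an occipital value, the exception being Ppp2r1b. Such a separation of 4 against 4 values was found in 6.41% of all genes. The median difference of all genes was 0.0076.

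The number of calls depended on which arrays were used. It lay between 46 and 104 when 1 of the 8 arrays was left out, with 46 without WT parietal replicate 3, 47 without parietal replicate 4, 55 without parietal replicate 2 and 57 without occipital replicate 4. The calls higher in parietal tissue then numbered 25 to 28 against 51, and those higher in occipital tissue 20 without parietal replicate 3, 22 without parietal replicate 4 and 24 without occipital replicate 2 against 39. A total of 35 genes stayed called in all 8 of these fits. With the replicate number as a block, in a fit of the 8 arrays, 213 genes were called, 106 higher in parietal and 107 in occipital tissue. They included 83 of the 90. A fit of the 8 arrays without the block called 127, so the rise from 90 does not come from the block alone. The labels do not say that same-numbered arrays are pairs.

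The arrays also differed in sex-linked RNA. WT parietal replicate 2 had a log2 signal of 12.1 for Xist, the RNA of the inactive X chromosome, and a mean of 5.76 over 3 Y-linked genes, and parietal replicate 3 had 8.65 for Xist beside a Y-linked mean of 9.18. In the other 6 arrays Xist lay between 5.73 and 6.24 and the Y-linked mean between 9.03 and 9.44. Without both of these parietal arrays 21 genes were called, 10 higher in parietal and 11 in occipital tissue. These included 19 of the 90. All 90 kept their sign, which was fixed in advance for the 89 genes whose values did not overlap. With the Y-linked mean as a covariate 71 of the 90 stayed called.

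Cortical neuron RNA was abundant in all 8 arrays. Neurod6, a transcription factor of cortical excitatory neurons, had log2 signals of 11.4 to 12.0 in parietal and 11.3 to 11.6 in occipital tissue. Tbr1, which marks early-born neurons of the deep layers, was at 10.16, 10.14, 10.43 and 10.37 in parietal and at 9.73, 10.21, 10.10 and 10.41 in occipital arrays, a difference of 0.16 (SE 0.124, limma adjusted p = 0.867). Of the markers of neighbouring tissue, Gbx2 of the thalamus, Tbx21 of the olfactory bulb and Prox1 of the dentate gyrus lay between 6.50 and 7.89. Drd1 of the striatum was brighter, at 8.63 to 8.93 in parietal and 8.22 to 8.68 in occipital arrays. The 6 thalamus list genes had a mean log2 level of 7.51 to 7.68 in parietal arrays and of 8.36, 7.49, 7.497 and 7.67 in occipital arrays, with summed signals of 1200 to 1345 and 1199 to 2114, so that occipital replicate 1 was high. There Lhx9 was at 9.06 against 6.50 to 6.94 on the other 7 arrays and Tcf7l2 at 9.02 against 6.97 to 7.28, and neither was called (adjusted p = 0.74 and 0.686). The part of thalamic RNA in the results was not tested. Ttr, the defining transcript of the choroid plexus, was uneven. It was at 10.82, 6.63, 6.33 and 6.38 in parietal and at 12.33, 10.16, 9.97 and 6.39 in occipital arrays, so that 1 parietal and 3 occipital arrays were high. Dcn, the matrix proteoglycan decorin of the meninges, was at 8.60, 6.82, 6.61 and 6.34 against 9.99, 8.34, 6.76 and 9.56.

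All 9 measured genes of a list of meninges and fibroblasts and all 7 of a list of choroid plexus were lower in parietal tissue, by a median of -0.78 and -0.35, and none of the 16 was called (limma, 3 at an unadjusted p under 0.05, which 7.66% of all genes reached). The summed linear signal of the meningeal list ran from 1563 to 3515 in parietal and from 1557 to 6701 in occipital arrays, and that of the choroid plexus list from 627 to 2567 and from 784 to 6220. With the mean level of both lists as a covariate 108 genes were called, 45 higher in parietal and 63 in occipital tissue, and they included 64 of the 90. The part of this RNA in the differences was not tested otherwise.

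The microRNA (miRNA) genes Mir137 and Mir551b were both higher in occipital tissue, the 2 called of 300 miRNA genes tested. That share of 0.667% is near the 0.451% called over all genes. A miRNA is cut from a hairpin transcript and represses messenger RNAs that match its seed, bases 2 to 8 from its 5′ end. The probe sets read RNA from the gene, not the mature arms. The mature sequences, from RefSeq on GRCm38.p6, are shown with the seed in capitals, since these are the parts through which each product recognises its targets. Those of Mir551b lie on the plus strand at chr3:29416840-29416862 and chr3:29416879-29416899, and those of Mir137 on the plus strand at chr3:118433865-118433887 and chr3:118433901-118433923.
mmu-miR-551b-5p: gAAAUCAAgcuugggugagaccu
mmu-miR-551b-3p: gCGACCCAuacuugguuucag
mmu-miR-137-5p: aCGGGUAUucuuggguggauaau
mmu-miR-137-3p: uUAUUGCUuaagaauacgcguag
The 4 seeds are all different. Both miRNA genes had a called gene beside them in the gene order of RefSeq. Mir551b lies inside the span of Egfem1, and Dpyd, the first enzyme of pyrimidine breakdown, is the next measured gene to Mir137.

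Egfem1, which encodes a protein with EGF-like domains, had the smallest adjusted p of all genes. Its log2 signal was 8.16, 8.09, 7.58 and 7.86 in parietal and 9.06, 9.36, 8.84 and 8.93 in occipital arrays. Every occipital array was above every parietal array, by 1.13 on average (SE 0.133, limma adjusted p = 1.47e-04, or 2.18-fold). Mir551b was at 8.31, 7.97, 8.005 and 8.24 in parietal and at 8.86, 9.09, 8.75 and 8.78 in occipital arrays, a difference of -0.74 (SE 0.104, adjusted p = 5.95e-04). Its probe set and that of Egfem1 thus differed in the same direction. Whether they read the same transcript was not tested.

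Mir137 was at 8.58, 8.69, 8.93 and 9.05 in parietal and at 9.39, 9.92, 9.81 and 9.53 in occipital arrays. The values did not overlap and the difference was -0.85 (SE 0.162, limma adjusted p = 0.00944), although the call was lost without occipital replicate 2 (adjusted p = 0.0544). Dpyd, its neighbour, was dimmer, at 6.39 to 6.55 in parietal and 6.92 to 7.24 in occipital arrays. Its difference of -0.59 (adjusted p = 0.0426) was lost in 7 of the 8 fits that left out 1 array (adjusted p up to 0.157).

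**Figure D1:**
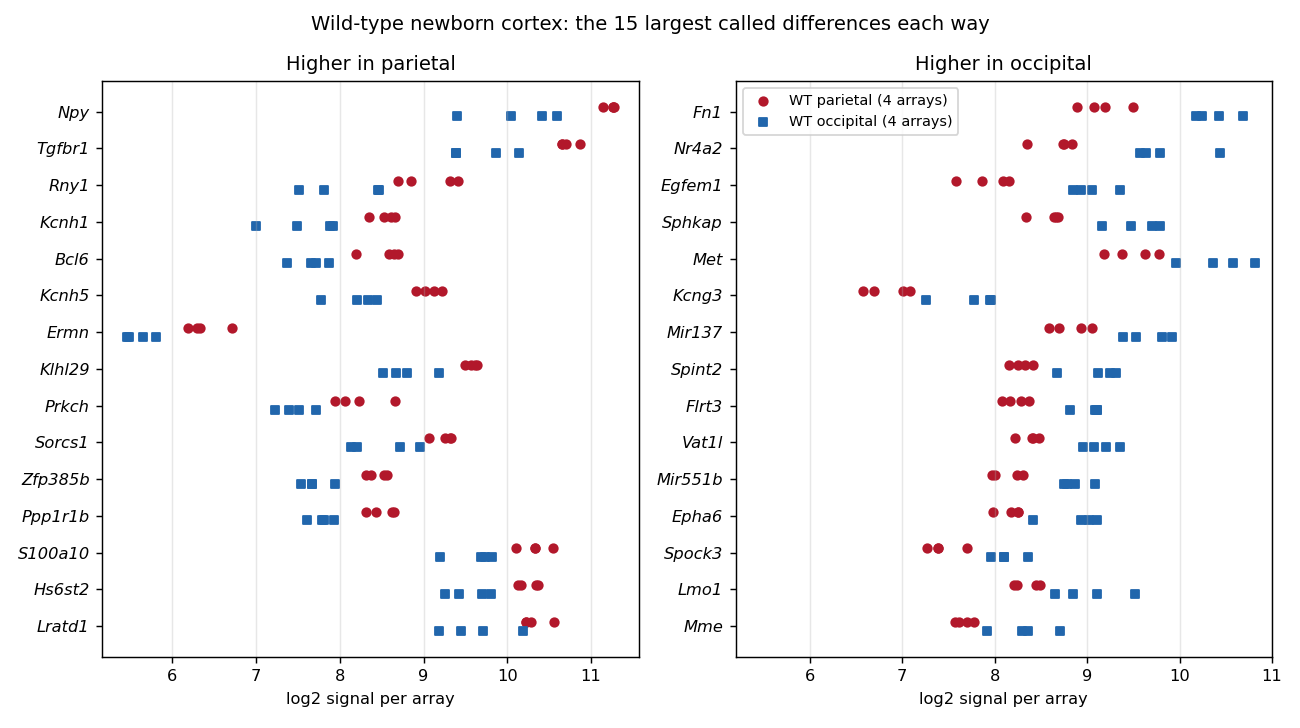
Log2 signal per array of the 15 largest called differences in each direction among genes whose values did not overlap, with circles for the 4 WT parietal and squares for the 4 WT occipital arrays. The log2 differences run from 0.69 (Lratd1) to 1.13 (Npy) on the parietal side and from -0.65 (Mme) to -1.22 (Fn1) on the occipital side.

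Among genes with a known role in forming cortical areas, those that passed the test belonged to the caudal list. Of 8 measured genes of a list high in caudal cortex, 2 were called, both higher in occipital tissue. In that direction 0.196% of all genes were called, and the median of the list was -0.20. This and the other lists were chosen with earlier results of these data known, so their counts describe and do not test. Nr2f1, the nuclear receptor COUP-TFI, was at 10.14, 10.38, 10.21 and 10.30 in parietal and at 10.55, 10.97, 10.99 and 10.88 in occipital arrays. The difference of -0.59 (SE 0.0957, limma adjusted p = 0.00189) was a 1.504-fold higher level in occipital tissue, with no overlap. The second was Tenm3, a teneurin, a large adhesion protein at the neuronal surface. It was at 10.94, 11.04, 10.62 and 10.78 against 11.38, 11.76, 11.44 and 11.33, a difference of -0.63 (SE 0.107, adjusted p = 0.00308).

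Nr2f2, the close relative COUP-TFII, was at 8.57 to 8.77 in parietal and 9.18 to 9.72 in occipital arrays. Its difference of -0.72 lay just outside the threshold (adjusted p = 0.0507) and inside it with the replicate block (adjusted p = 0.00253). The other 5 caudal genes had small or variable differences. Tshz2 differed by -0.33 (adjusted p = 0.832). The progenitor factors Emx2, Lhx2, Dmrta2 and Dmrt3 differed by 0.16, -0.07, 0.06 and -0.07 (adjusted p of 0.898 to 0.958).

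None of 10 genes of a list high in rostral cortex was called by limma. An unadjusted p under 0.05 was found for 1 (7.66% over all genes). That gene was Etv5, a transcription factor induced by fibroblast growth factor, at 8.80 to 9.08 in parietal and 8.27 to 8.67 in occipital arrays (difference 0.45, adjusted p = 0.129). Sp8 differed by 0.13, Etv4 by 0.08 and Etv1 by -0.10. The ERK phosphatase Dusp6, which like Etv5 is induced by fibroblast growth factor and is not in the list, was called at 0.59 (SE 0.123, adjusted p = 0.0195), with parietal values of 8.99 to 9.21 and occipital values of 8.23 to 8.66. It was picked here after its value was seen, and its call was lost in 5 of the 8 fits that left out 1 array.

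Of 8 genes that mark the borders of sensory areas none was called by limma, and 4 had an unadjusted p under 0.05 (7.66% over all genes), all higher in parietal tissue. The mean log2 level of the list was 10.19, 10.18, 10.15 and 10.16 in parietal and 9.79, 10.17, 10.20 and 9.87 in occipital arrays, so that occipital replicates 2 and 3 were at the parietal level. Without occipital replicates 1 and 4, which held the highest meningeal levels, the list median went from 0.12 to -0.03. Without occipital replicates 2 and 3 it was 0.36. Replicates 1 and 4 were also the lowest occipital arrays of this list, so these fits do not test the part of meningeal RNA. Rorb, the nuclear receptor of layer 4 neurons, was tight in parietal tissue at 9.85, 9.74, 9.72 and 9.74 and wide in occipital tissue at 8.18, 9.23, 9.64 and 8.96. No value overlapped, yet the difference of 0.76 did not pass (SE 0.204, adjusted p = 0.114). Lmo3, a LIM-only protein, was at 10.66, 10.77, 10.87 and 10.78 against 10.41, 10.28, 10.38 and 10.37. Its difference was 0.41 (adjusted p = 0.067, and 0.00894 with the replicate block). The ephrin Efna5 and the Eph receptor Epha4 differed by 0.38 (adjusted p = 0.47) and 0.31 (adjusted p = 0.418).

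**Figure D2:**
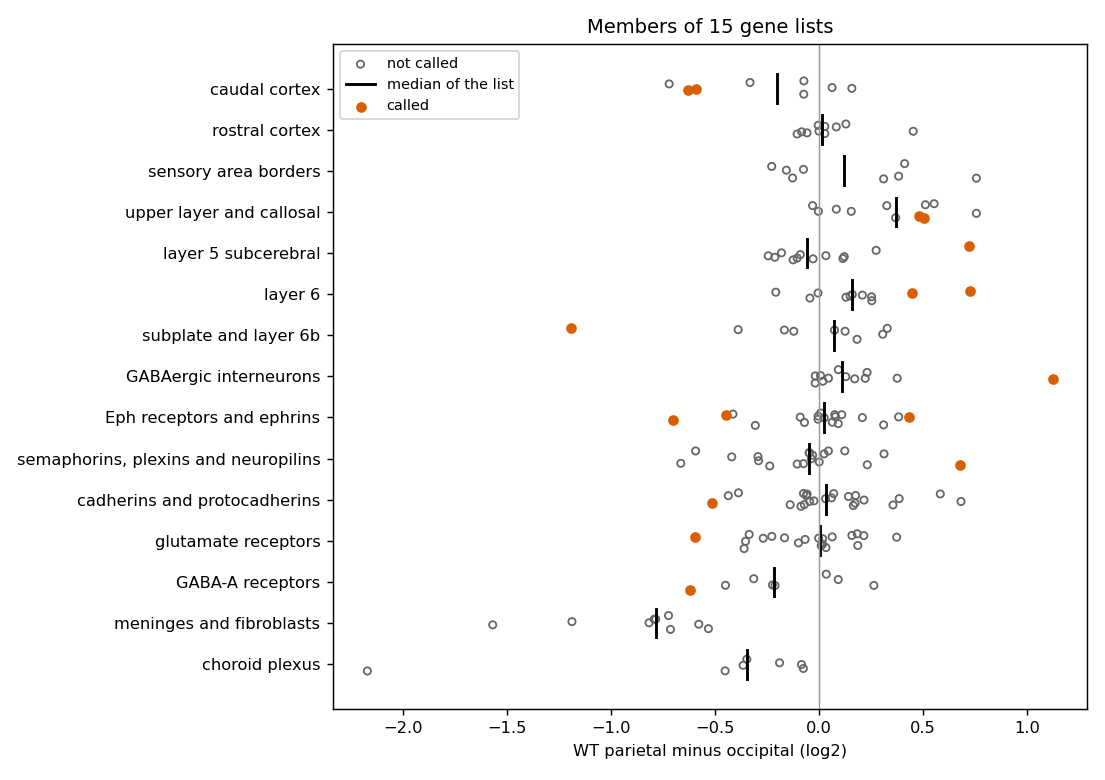
Log2 difference (WT parietal minus occipital) of each measured member of 15 gene lists, with called genes as filled orange circles, other genes as open circles and a bar at the median of each list. The upper-layer list has its median at 0.37 and the meningeal list at -0.78, and the caudal list has both of its called members on the occipital side.

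Cortical neurons of different layers send axons to different targets, and their marker genes were taken by layer. Of 11 measured genes of upper-layer and callosal neurons 2 were called, both higher in parietal tissue (0.256% over all genes). An unadjusted p under 0.05 was found for 7 (7.66% over all genes), all 7 on that side. The list median was 0.37 (0.0076 over all genes). The mean log2 level of the list was 9.86, 9.86, 9.89 and 9.87 in parietal and 9.32, 9.62, 9.75 and 9.45 in occipital arrays. That of the meningeal list was 8.37, 7.21, 7.24 and 7.21 against 9.32, 7.89, 7.21 and 9.02, so that the occipital arrays lowest in upper-layer genes, replicates 1 and 4, were highest in meningeal genes. Without those replicates the upper-layer median was 0.19, with 1 member called and 3 at an unadjusted p under 0.05, and with the meningeal and choroid plexus covariate it was 0.24, with 1 called and 4 unadjusted. Pou3f3 (Brn1), a POU-domain factor of upper-layer neurons, was at 9.81, 9.95, 10.0025 and 9.84 in parietal and at 9.65, 9.47, 9.36 and 9.10 in occipital arrays. Its difference was 0.50 (SE 0.0959, limma adjusted p = 0.00911), and the call was lost without occipital replicate 4 (adjusted p = 0.0549) or parietal replicate 3 (0.0573). Cux1, a homeodomain factor of the same layers, was at 9.57 to 9.67 against 8.79 to 9.45. Its call (0.48, SE 0.11, adjusted p = 0.0426) was lost in 7 of the 8 fits that left out 1 array, with the Y-linked covariate (adjusted p = 0.0763) and with the meningeal and choroid plexus covariate (adjusted p = 0.111). With the replicate block 4 members of the list were called, and without both parietal replicates 2 and 3 none was. The related Pou3f2 was at 10.71 to 11.61 in parietal and 10.45 to 10.99 in occipital arrays, a difference of 0.51 (adjusted p = 0.399, and 0.011 with the replicate block).

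Of 12 genes of layer 5 neurons that project below the cortex 1 was called (0.451% over all genes). S100a10 (p11), the partner of annexin A2, was at 10.33, 10.10, 10.54 and 10.34 in parietal and at 9.74, 9.19, 9.69 and 9.82 in occipital arrays, a difference of 0.72 (SE 0.129, limma adjusted p = 0.00591). The layer 5 factors Fezf2 and Bcl11b differed by -0.12 and 0.12. In layer 6, 2 of 11 genes were called and both were higher in parietal tissue (0.256% of all genes were called in that direction). Ppp1r1b, the phosphatase inhibitor DARPP-32 that relays dopamine signals, was at 8.63, 8.32, 8.65 and 8.43 against 7.80, 7.61, 7.93 and 7.79, a difference of 0.72 (SE 0.108, adjusted p = 8.46e-04). It is also a marker of the striatum, where the other 9 measured list genes were not called and Drd1, the dopamine receptor of that tissue, differed by 0.30 (adjusted p = 0.393). The 10 striatum genes, Ppp1r1b included, had a list median of 0.10. Of these, 4 had an unadjusted p under 0.05 (7.66% over all genes), all higher in parietal tissue. The summed signal of the 10 genes was 1899 to 2371 in parietal and 1690 to 1992 in occipital arrays. Its part in the Ppp1r1b result was not tested. Syt6, a synaptotagmin of layer 6 neurons, differed by 0.45 (SE 0.0929, adjusted p = 0.0184), and that call was lost in 5 of the 8 fits that left out 1 array.

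Nr4a2 (Nurr1), a nuclear receptor of subplate and claustrum neurons, was the called member of both of those lists. It was higher in occipital tissue (0.196% of all genes were called in that direction). Its log2 signal was 8.74, 8.75, 8.35 and 8.83 in parietal and 9.79, 9.57, 9.64 and 10.43 in occipital arrays. The difference of -1.19 (SE 0.236, limma adjusted p = 0.0136) was lost without occipital replicate 4 (adjusted p = 0.0856) or parietal replicate 3 (adjusted p = 0.0796). The other 8 subplate genes were not called, and differed by -0.39 (Lpar1) to 0.33 (Ccn2). Ccn2 was at 8.75 to 8.95 in parietal and 8.42 to 8.55 in occipital arrays (adjusted p = 0.344), and Nxph4 differed by 0.31 (adjusted p = 0.374).

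Npy was the called member of 12 measured genes of GABAergic interneurons (0.451% called over all genes). It was at 11.14, 11.28, 11.27 and 11.26 in parietal and at 9.40, 10.41, 10.59 and 10.04 in occipital arrays. All parietal arrays lay close together above the occipital arrays, with a difference of 1.13 (SE 0.168, adjusted p = 8.46e-04). The peptide Sst, made by overlapping interneurons, differed by 0.17 (adjusted p = 0.928), the synthetic enzyme Gad1 by -0.02, and Dlx2, a factor of interneurons and their precursors, by 0.38 (adjusted p = 0.0918, and 0.0391 with the replicate block). The lists of Cajal-Retzius cells (8 measured), radial glia (11), intermediate progenitors (7), cell division (13), immature neurons (10), synapse and neurofilament (13), astrocytes (7), oligodendrocyte lineage (7), microglia (9) and blood vessels (7) held no called gene in the limma fit. Over all genes 0.451% were called, so the lack of a call in lists of this size says little about them. In all, 23 of the 36 lists were without a called gene, and 74 of the 90 called genes were in no list.

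Cell surface receptors and adhesion proteins formed the next group. Eph receptors and ephrins signal between touching cells and guide axons to their targets. Of 19 measured, Epha5 and Epha6 were called higher in occipital and Ephb6 in parietal tissue (0.451% called over all genes). The list median was 0.03. Epha5 was at 10.24, 10.38, 10.42 and 10.26 in parietal and at 10.68, 10.82, 10.69 and 10.90 in occipital arrays (-0.45, SE 0.0769, limma adjusted p = 0.00367). Epha6 was at 8.26, 8.25, 7.98 and 8.17 against 9.02, 8.94, 8.42 and 9.10 (-0.70, SE 0.128, adjusted p = 0.00622). Ephb6, a receptor without kinase activity, was at 9.64 to 9.95 against 9.25 to 9.46 (0.43, adjusted p = 0.0364), and this call was lost in 6 of the 8 fits that left out 1 array.

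Among 19 semaphorins, plexins and neuropilins Sema7a was called (0.451% over all genes). This membrane-anchored semaphorin was at 10.67, 10.72, 10.62 and 10.64 in parietal and at 10.03, 10.14, 10.09 and 9.68 in occipital arrays, a difference of 0.68 (SE 0.0932, limma adjusted p = 5.75e-04). Plxnc1, its receptor, differed in the other direction, by -0.59, and did not pass (adjusted p = 0.065, and 0.0106 with the replicate block). The guidance cue Slit2 differed by -0.69 (adjusted p = 0.0591, and 0.0106 with the replicate block). Of 23 cadherins and protocadherins Cdh20 was called (0.451% over all genes). It was at 7.58 to 7.87 in parietal and 7.99 to 8.57 in occipital arrays. Its difference of -0.51 (adjusted p = 0.0167) was lost in 4 of the 8 fits that left out 1 array and with the replicate block (adjusted p = 0.0537). With the block 4 other members of that list were called higher in parietal tissue.

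Teneurins bind latrophilins across synaptic contacts, and FLRT proteins bind latrophilins as well. This family was looked at after its members' values had been seen, so its counts describe and do not test. Of 10 measured members Tenm2, Tenm3 and Flrt3 were called higher in occipital tissue (0.196% over all genes) and the latrophilin Adgrl2 in parietal tissue (0.256%). Flrt3 was at 8.37, 8.17, 8.29 and 8.08 in parietal and at 8.81, 9.10, 9.09 and 9.10 in occipital arrays, a difference of -0.80 (SE 0.113, limma adjusted p = 5.95e-04). Tenm2 differed by -0.47 (adjusted p = 0.0438), and that call was lost in 7 of the 8 fits that left out 1 array. Adgrl2 was at 12.06, 11.99, 12.13 and 12.02 against 11.73, 11.32, 11.68 and 11.39 (0.51, SE 0.0926, adjusted p = 0.00591), and its 7 other probe sets differed by 0.53 to 0.81. The latrophilins Adgrl1 and Adgrl3 differed by 0.11 and -0.12 and were not called.

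Receptors of growth factors differed in both directions. Tgfbr1, the type I receptor of transforming growth factor beta, was at 10.66, 10.66, 10.87 and 10.71 in parietal and at 9.39, 9.87, 10.14 and 9.38 in occipital arrays, a difference of 1.02 (SE 0.138, limma adjusted p = 5.54e-04). Acvr2a, the type II receptor of activins, was at 10.17 to 10.42 in parietal and 10.53 to 11.14 in occipital arrays (-0.56, SE 0.101, adjusted p = 0.00591). Met, the receptor of hepatocyte growth factor, was at 9.62, 9.78, 9.18 and 9.38 against 9.96, 10.81, 10.58 and 10.36. Its difference of -0.93 (SE 0.177, adjusted p = 0.00863) was lost without occipital replicate 2 (adjusted p = 0.0536) or parietal replicate 3 (0.0603). Spint2, an inhibitor of the proteases that activate hepatocyte growth factor, was also higher in occipital tissue. It was at 8.41, 8.25, 8.15 and 8.32 in parietal and at 9.32, 9.12, 8.68 and 9.25 in occipital arrays (-0.81, SE 0.117, adjusted p = 7.00e-04).

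Ion channels and transmitter receptors were also among the called genes. Kcnh1 and Kcnh5, voltage-gated potassium channels of the EAG type, were both higher in parietal tissue (0.256% of all genes were called in that direction). Kcnh1 was at 8.66, 8.53, 8.35 and 8.61 in parietal and at 6.998, 7.88, 7.91 and 7.49 in occipital arrays (0.97, SE 0.176, limma adjusted p = 0.00621). Kcnh5 was at 9.01, 9.22, 8.91 and 9.12 against 8.20, 8.34, 8.45 and 7.77 (0.88, SE 0.138, adjusted p = 0.0015). The other 5 measured genes of this channel family, looked at after the values were seen, differed by -0.13 (Kcnh3) to 0.11 (Kcnh7) and were not called. Kcng3, a potassium channel subunit that works only in partnership with other subunits, was on the occipital side, at 7.01, 7.09, 6.58 and 6.69 against 7.78, 7.96, 7.26 and 7.95 (-0.90, SE 0.128, adjusted p = 6.21e-04).

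Of 20 measured glutamate receptor genes the kainate receptor Grik2 was called (0.451% over all genes). It was at 10.29 to 10.65 in parietal and 10.95 to 11.14 in occipital arrays. Its difference of -0.60 (SE 0.118, limma adjusted p = 0.013) was lost without parietal replicate 4 (adjusted p = 0.0788). With the replicate block 3 members were called higher in occipital tissue and 1 in parietal tissue. Of 8 GABA-A receptor genes Gabrb1 was called (0.451% over all genes). It was at 8.92 to 9.14 in parietal and 9.51 to 9.89 in occipital arrays (-0.62, SE 0.125, adjusted p = 0.0158). That call was lost without occipital replicate 2, parietal replicate 3 or parietal replicate 4 (adjusted p up to 0.0935). Sphkap, which anchors protein kinase A, was at 8.67, 8.68, 8.34 and 8.65 in parietal and at 9.48, 9.71, 9.16 and 9.79 in occipital arrays (-0.95, SE 0.149, adjusted p = 0.00139).

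Further genes with large differences act in transcription, the matrix and the cytoskeleton. Bcl6, a zinc finger repressor that promotes neuron formation, was at 8.65, 8.19, 8.70 and 8.59 in parietal and at 7.37, 7.66, 7.87 and 7.71 in occipital arrays (0.88, SE 0.161, limma adjusted p = 0.00622). Klhl29, a kelch-like protein, was at 9.56, 9.49, 9.64 and 9.61 against 8.52, 8.81, 9.18 and 8.67 (0.78, SE 0.118, adjusted p = 8.77e-04). Both stayed called in each fit that left out 1 array. Their lack of overlap was part of the rule by which they were named. Rny1, a small noncoding Y RNA bound by the Ro60 protein, was at 8.70, 9.32, 9.41 and 8.85 against 8.47, 7.81, 7.51 and 8.46. Its difference of 1.01 (SE 0.173, adjusted p = 0.00366) was not called with the replicate block (adjusted p = 0.0787).

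Fn1 was at 9.499, 8.89, 9.07 and 9.19 in parietal and at 10.24, 10.43, 10.18 and 10.68 in occipital arrays, a difference of -1.22 (SE 0.234, limma adjusted p = 0.00964). The call was lost without occipital replicate 4 (adjusted p = 0.0549) or parietal replicate 2 (adjusted p = 0.0539). Fibronectin is also made by meningeal and vascular cells. With the meningeal and choroid plexus level as a covariate the difference of Fn1 was -0.86 (adjusted p = 0.0285). For comparison, that of Npy was 0.89 and that of Egfem1 -1.07 in that fit. Of 5 enzymes that set the 6-O sulfation of heparan sulfate, the sugar chain that binds growth factors and guidance cues, 2 were called. Both were higher in parietal tissue (0.256% of all genes were called in that direction). This family was put together after its values were seen. Hs6st2, which adds sulfate at the 6-O position, was at 10.13, 10.34, 10.37 and 10.16 against 9.43, 9.70, 9.81 and 9.26 (0.70, SE 0.108, adjusted p = 0.0012). Sulf2, which removes it outside the cell, differed by 0.51 (adjusted p = 0.0373), and that call was lost in 7 of the 8 fits that left out 1 array. The other 3, Hs6st1, Hs6st3 and Sulf1, were not called and differed by -0.02, -0.19 and 0.05.

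The 15 largest differences in each direction held 9 more genes. On the parietal side Ermn, Prkch, Sorcs1, Zfp385b and Lratd1 differed by 0.69 to 0.78. Ermn, a cytoskeletal protein of oligodendrocytes, was dim at 6.19 to 6.71 against 5.45 to 5.81, and its call was lost without parietal replicate 3 (adjusted p = 0.0618). The calls of Prkch, a protein kinase C, and of the sortilin-related receptor Sorcs1 were lost in 4 and 5 of the 8 fits that left out 1 array. Those of Zfp385b and Lratd1 were lost in 4 and 7. A dimmer probe set of Prkch differed by 0.35, against 0.76 for the one used. On the occipital side Vat1l was at 8.22 to 8.48 against 8.95 to 9.35 (-0.77, limma adjusted p = 0.00189). Spock3, an extracellular proteoglycan, Lmo1, a LIM-only protein, and Mme, the peptidase neprilysin, differed by -0.70, -0.68 and -0.65. Their calls were lost in 2, 6 and 7 of the 8 fits that left out 1 array.

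The frontal WT arrays show where the third region of the same genotype lay, and are given as levels. Of the caudal list, Nr2f1 and Tenm3 were lowest in frontal tissue. Nr2f1 had a mean log2 signal of 9.61 ± 0.10 in frontal, 10.26 ± 0.10 in parietal and 10.85 ± 0.21 in occipital tissue (SD, n = 4 each). Tenm3 was at 9.93 ± 0.23, 10.85 ± 0.18 and 11.48 ± 0.19. Nr2f2 was not lowest there, with a frontal range of 8.67 to 9.37 that overlapped both other regions. Outside that list, Egfem1 was at 6.97 ± 0.27, 7.92 ± 0.26 and 9.05 ± 0.23, and Met at 8.56 ± 0.43, 9.49 ± 0.27 and 10.43 ± 0.36. In Nr2f1, Tenm3, Egfem1 and Met the ranges of the 3 regions did not overlap, and parietal tissue lay between the other two. The same held for Nr4a2 (7.78 ± 0.21, 8.67 ± 0.22 and 9.86 ± 0.40) and Kcng3 (6.27 ± 0.08, 6.84 ± 0.25 and 7.74 ± 0.33). On the parietal side S100a10 was highest frontally, at 11.09 ± 0.08, 10.33 ± 0.18 and 9.61 ± 0.28.

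Other genes had frontal values that overlapped those of parietal tissue and not those of occipital tissue. Sphkap was at 8.61 ± 0.28 in frontal, 8.59 ± 0.16 in parietal and 9.54 ± 0.28 in occipital tissue (SD, n = 4 each). Spint2 was at 8.20 ± 0.13, 8.29 ± 0.11 and 9.09 ± 0.29, Mir137 at 8.84 ± 0.32, 8.82 ± 0.21 and 9.66 ± 0.24, and Npy at 11.44 ± 0.24, 11.24 ± 0.06 and 10.11 ± 0.53. Sema7a had its highest level in parietal tissue, at 10.35 ± 0.17, 10.66 ± 0.04 and 9.98 ± 0.21, with no overlap between the regions. Fn1 was variable in frontal tissue, where its 4 values ran from 8.76 to 10.37 and overlapped both other regions.

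**Figure D3:**
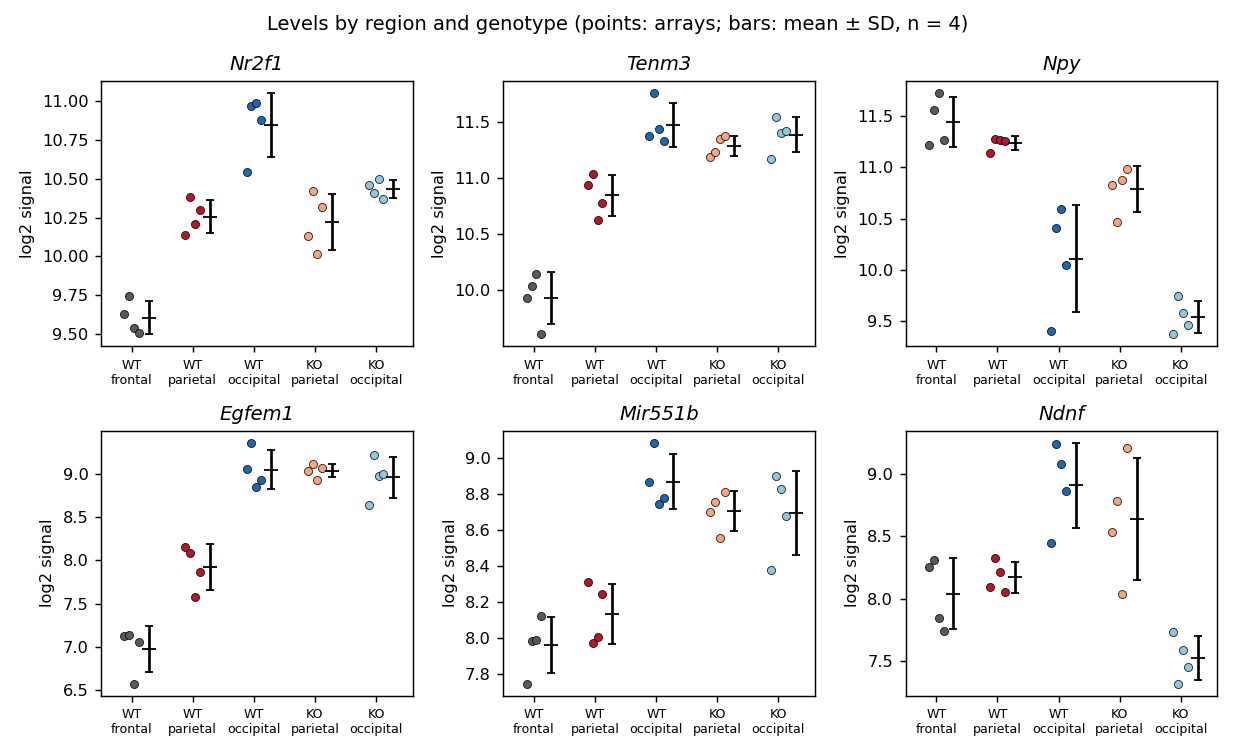
Log2 signal of 6 genes in WT frontal, parietal and occipital and in KO parietal and occipital tissue, with points for arrays and bars for the mean ± SD of 4 arrays. Nr2f1, Tenm3 and Egfem1 step up from frontal to occipital tissue in WT, and in KO the 4 parietal values of Egfem1 lie between 8.93 and 9.11, within the range of the KO occipital values.

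The KO parietal and occipital arrays are the same regions in mice without Tbr1, and the KO difference uses no array of the WT difference. Both differences were tested in the same limma fit, which estimated the spread of each gene from all P0.5 arrays together. A gene thus had the same SE in both genotypes (0.168 for Npy in WT and in KO). The WT and KO calls are therefore not independent, and neither is their overlap. In KO 70 genes were called (0.351%), 35 in each direction (0.176%). Of the 90 genes called in WT, 15 were also called in KO, all 15 in the same direction, which is 16.7% of the WT calls and 21.4% of the KO calls. They were Npy, Ptpro, Kif26b, Cxxc4, Cdkl1, Fam174b and Zeb2 on the parietal side and Epha5, Cdh20, D630023F18Rik, Acvr2a, Vat1l, Spint2, Sphkap and Nr4a2 on the occipital side. The KO differences of Npy (1.25), Sphkap (-0.90) and Spint2 (-0.73) stayed called in all 8 fits that left out 1 KO array. Those of Cxxc4, Epha5 and D630023F18Rik did so too. The KO calls of Nr4a2 (-1.08, limma adjusted p = 0.0375), Kif26b, Zeb2 and Acvr2a held in 2 of these fits and that of Ptpro in 3. Fam174b kept its KO call in 4, Cdkl1 and Vat1l in 5 and Cdh20 in 6. When 1 WT array was left out, Zeb2 kept its WT call in 1 of 8 fits, Cdkl1 and Cxxc4 in 2 and Kif26b in 3. Cdh20 kept it in 4, D630023F18Rik in 5, Nr4a2 in 6 and the others in all 8. A fit of the KO parietal and occipital arrays alone called 55 genes in KO, and 23 with the replicate number as a block as well. With the Y-linked covariate 47 were called. The Y-linked mean was 9.11, 5.42, 9.05 and 5.36 in the KO parietal and 9.32, 9.18, 5.88 and 9.02 in the KO occipital arrays. Without KO occipital replicate 3 there were 28 calls, without occipital replicate 1 there were 32, and without any 1 of the 4 KO parietal arrays 40 to 45.

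The sign in KO was that of WT for 77 of the 90 WT calls (85.6%), against 55.9% of all genes. It was the same for 45 of the 51 higher in parietal and for 32 of the 39 higher in occipital tissue. The size of the difference was smaller in KO for 83 of the 90, with a median absolute log2 difference of 0.54 in WT and 0.23 in KO. These genes were chosen by their WT values, and the reverse count over genes chosen by their KO values was similar. Of the 70 KO calls 62 had a smaller difference in WT, with medians of 0.58 in KO and 0.29 in WT.

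The difference between the genotypes itself was tested as an interaction, the KO difference minus the WT difference. It passed for 2 genes, Egfem1 and Ndnf (0.01% of all genes), while 784 genes had an unadjusted p under 0.05. No gene passed without KO parietal replicate 2, WT occipital replicate 2 or WT parietal replicate 4, 1 passed without KO occipital replicate 2 or WT occipital replicate 3, and 6 passed without WT occipital replicate 1. Egfem1 was at 9.03, 9.11, 8.93 and 9.06 in KO parietal and at 8.64, 9.22, 8.97 and 9.003 in KO occipital arrays. The KO arrays of both regions thus overlapped, and all KO parietal arrays lay above all WT parietal arrays. The KO difference was 0.08 and the interaction 1.20 (SE 0.188, limma adjusted p = 0.0143), a call lost without KO parietal replicate 2 (adjusted p = 0.0547), WT occipital replicate 2 (0.0653) or WT parietal replicate 4 (0.0551). For Mir551b, inside Egfem1, the KO difference was 0.01 and the interaction 0.75 (adjusted p = 0.14).

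Ndnf, a secreted neuron-derived factor with fibronectin-type domains, was at 8.10, 8.33, 8.21 and 8.05 in WT parietal and at 8.45, 9.24, 9.08 and 8.87 in WT occipital arrays. That difference, -0.74, was not called (limma adjusted p = 0.149, and 0.00497 with the replicate block). In KO it was at 8.53, 8.78, 8.04 and 9.21 in parietal and at 7.73, 7.32, 7.59 and 7.46 in occipital arrays, a difference of 1.11 (adjusted p = 0.012). The order of the regions was thus opposite in the 2 genotypes, with no overlap in either. The interaction was 1.85 (SE 0.297, adjusted p = 0.0143), a call lost without WT occipital replicate 2 or 3, WT parietal replicate 4, KO parietal replicate 2 or KO occipital replicate 2 (adjusted p up to 0.0653). For the other genes with a smaller difference in KO than in WT, such as Tenm3 (-0.10 in KO, interaction adjusted p = 0.667), Nr2f1 (-0.21, 0.999), Met (0.13, 0.418), Kcnh1 (0.09, 0.64) and Bcl6 (-0.16, 0.373), a difference between the genotypes did not pass correction.

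**Figure D4:**
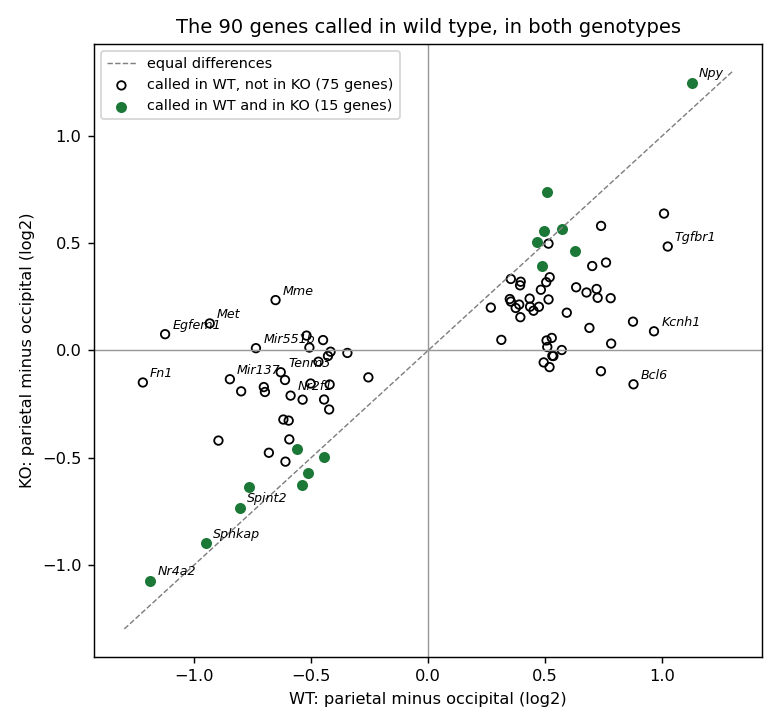
Parietal minus occipital log2 difference of the 90 genes called in WT, with WT on the horizontal and KO on the vertical axis; filled circles are the 15 genes also called in KO, open circles the other 75, and the dashed line marks equal differences. Npy, Nr4a2, Sphkap and Spint2 lie near the dashed line, and Egfem1, Met, Fn1 and Kcnh1 lie between -0.15 and 0.13 on the KO axis.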

How the data were processed

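The authors deposited log2 signals per probe set of Affymetrix Mouse Gene 1.0 ST arrays (per the labels' protocol), made with Affymetrix Expression Console 1.1 and RMA (background correction, normalisation across arrays and summary per probe set) per the submitters' processing notes. These log2 values were not normalised again, and ranged from 1.77 to 14.6 with array medians of 7.42 to 7.52. There is no count depth on arrays, and the precision rests on how many there are. Of 35557 probe sets 21789 named 1 gene and were used, 1621 named several genes and 12147 none. The brightest probe set of each gene over the 24 arrays gave 19938 genes, with no filter on dim genes. The E14.5 arrays were not used here.

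The 24 P0.5 arrays were fitted as 6 groups with limma 3.58.1 under R 4.3.3 (lmFit, then eBayes with an intensity trend), with two-sided contrasts for WT parietal minus occipital tissue, the same in KO, and their interaction. The fit was run on simulated data with independent noise for each gene and array. These held no sex mixture, no neighbouring tissue and no correlated arrays, so they do not test the calls against those. The 36 gene lists (376 genes, 353 measured) and the comparison were chosen with earlier results of these data known, and were described by counts and medians with no set test. The genes named are the 15 largest called differences each way without overlap, all members of the 3 area lists, up to 4 members of other lists by p, up to 5 called each way in KO and in the interaction, and Tbr1. Fezf2, Bcl11b, Sst, Gad1, Dusp6, Adgrl2 and its relatives, the channel and heparan sulfate families, Acvr2a and Dpyd, and the genes called in both genotypes, fall outside this rule and were picked after their values were seen.

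The same-numbered WT parietal and occipital arrays were checked for pairing. The correlations of their residuals over genes were 0.276, 0.208, 0.164 and 0.124, all above 0.1, and 3 of 4 parietal arrays correlated best with their own number, so the fit with the replicate number as block is given wherever it changes a result. The labels do not say that a number is 1 animal. Parietal replicate 2 correlated less with its own number (0.208) than with another (0.266). The Y-linked mean of replicate 2 was 5.76 in parietal and 9.44 in occipital tissue, and its Xist signal 12.1 and 6.17. As labelled, number 2 thus does not pair tissue of 1 animal, which limits the p-values with the block. In KO the correlations of same-numbered arrays ran from -0.317 to 0.0129. Alternatives were averaging the probe sets of a gene, a filter on the dimmest 30% of genes, centring arrays on their medians, eBayes without the trend, a fit restricted to the arrays compared, array weights, the block, a Y-linked covariate, a 1.5-fold minimum and leaving out each array. Chosen later, with the data in view, were the fits without pairs of arrays and with a meningeal and choroid plexus covariate.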

Additional observations from a re-analysis of the deposited data

Results flagged for a closer look

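The parietal minus occipital difference of Egfem1 was not the same in the 2 genotypes. The KO difference minus the WT difference was 1.20 in log2 units (SE 0.188, limma adjusted p = 0.0143). The same contrast for Ndnf was 1.85 (SE 0.297, adjusted p = 0.0143), with the region order opposite in WT and KO.

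Among 116 genes in 2 groups of 4 WT arrays each, 8 of the 232 sets of 4 values had 1 array far from the other 3 by Dixon's test, where chance gives about 1 in 20. In parietal tissue these were Npy in replicate 1 (11.14, the lowest), Cxxc4 in replicate 2 (9.12, the highest), Sphkap in replicate 3 (8.34, the lowest), Mn1 in replicate 3 (10.15, the highest) and Stac2 in replicate 3 (7.88, the highest). In occipital tissue they were Flrt3 in replicate 1 (8.815, the lowest), Abracl in replicate 4 (9.59, the lowest) and Fam174b in replicate 4 (8.84, the lowest).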

How the results depend on the processing

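The direction of the 90 called genes was the same in all alternatives run, and which of them stayed called was not. For the 89 genes without overlap, leaving out or weighting arrays could not reverse the direction. The block, the 1.5-fold minimum, the filter on dim genes, eBayes without the trend and the fit restricted to the arrays compared left the difference itself unchanged. The shared direction in those fits was therefore fixed in advance and is no support. Averaging probe sets could change the difference only in genes with several of them. Against 90 calls in WT (51 higher in parietal, 39 higher in occipital), array weights gave 452 (201 and 251), a 1.5-fold minimum 41 (19 and 22) and leaving out both parietal replicates 2 and 3 gave 21 (10 and 11). With the replicate block the numbers were 213 (106 and 107), and 7 of the 90 were lost. The meningeal and choroid plexus covariate gave 63 calls higher in occipital tissue. Leaving out 1 array gave 46 to 104 calls, 25 to 59 higher in parietal and 20 to 52 higher in occipital tissue. Against 70 calls in KO, a 1.5-fold minimum gave 34, array weights 191 and leaving out 1 array 28 to 82. A fit restricted to the arrays compared gave 55 there, and 23 with the replicate block. In KO the counts were 28 without occipital replicate 3 and 32 without occipital replicate 1. Against 2 calls for the interaction, array weights gave 17, a fit restricted to the arrays compared gave 4, and leaving out 1 array 0 to 6. The cause of these changes was not tested, beyond the fewer arrays or the stricter threshold. Over all alternatives, 526 of 1797 values of the called genes fell short of the threshold, and 60 of 2869 values of 144 named genes that were not called passed it. The number of arrays limits what can be detected. A gene without a call is not shown to be equal in the 2 regions.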
